A study of Mus musculus with 3 samples.

Results

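Ileal enterocytes are the absorptive cells that line the last stretch of the small intestine. They were taken as the 7% of cells in each library with the highest summed value of 6 genes, Fabp6, Slc10a2, Tmigd1, Slc51b, Mgat4c and Mep1a. Cells with 1500 or more defensin (Defa) UMIs per 10000 or with Agr2 at 30 or more per 10000 were left out first. UMIs are the molecule tags that the sequencing counts, and every level below is a number of UMIs per 10000 UMIs of the cells concerned. This gave 660 cells of 9443 eligible and 12653 in all. The AOS 0 library gave 218 of its 3124 eligible cells, B + A 0 gave 154 of 2200, and B + A 10 gave 288 of 4119. Where 3 values follow each other without a group name, they are for these libraries in this order. The share of cells was therefore fixed by the rule, and the levels of the 6 genes that chose the cells are given as a description.

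The small intestine of male ICR mice, an outbred strain, was profiled by droplet single-cell RNA sequencing from the 3′ end of the transcripts. Mice were 3 weeks old when the treatments began. AOS 0 mice were the controls and received water. B + A 0 mice received busulfan, an alkylating drug that injures dividing cells, in a single injection of 40 mg/kg, followed by water. B + A 10 mice received the same injection followed by alginate oligosaccharide (AOS), short sugar chains made from the seaweed polymer alginate, at 10 mg/kg. Water or AOS was given by gavage for 2 weeks. The cells of 6 mice were combined into 1 library per group, so the spread between mice cannot be seen, there is no test between groups, and no value has a replicate. Intervals are 95% exact intervals that cover counting error only. The source labels of the busulfan libraries name other groups than their titles and treatment labels do, and groups were taken from the treatment labels. The labels name only the intestine, so how much ileum entered each pool is unknown and cannot be told apart from the treatment.

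The libraries held 35258551, 26044381 and 23003083 UMIs. The ileal enterocytes had a median of 7160, 6379.5 and 3375.5 UMIs per cell, so B + A 10 was the shallowest. Of their barcodes 3, 3 and 6 also occurred in another library. A doublet score marked 6, 3 and 4 of them among the highest 5% of their library, and these cells were kept. The 10 cells just inside the limit of each library had pooled Fabp6 levels of 569, 526 and 398. The 10 just outside had 469, 417 and 341, so the limit runs through a continuous range of cells. The lowest score inside was 13.98, 13.21 and 11.05, and the highest outside was 13.93, 13.21 and 11.05. The limit was thus lower in B + A 10, which bears on every comparison between libraries below.

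In the ileum bile acids are taken back from the gut lumen so that the liver can use them again. Slc10a2 (ASBT) is the sodium-driven transporter that carries them through the brush border. Fabp6 is the small cytosolic protein that binds them inside the cell, and Slc51a and Slc51b together form the exporter of the basal side. The nuclear receptor Nr1h4 (FXR) senses bile acids and is known to switch on Fabp6, Slc51a, Slc51b, Nr0b2 and the hormone Fgf15, which tells the liver to make less bile acid.

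The marker genes of the label are those of the rule, apart from Mep1a. All 660 cells had at least 1 UMI of Fabp6, and 573 also had Slc10a2, namely 207 of 218, 147 of 154 and 219 of 288. The other 87 had Fabp6 without Slc10a2, and 69 of these were in the shallow B + A 10 library. All 6 genes were detected in 400 cells, and no cell had fewer than 3 of them. Defining genes of other cell types were low, since tuft markers summed to at most 0.0344 per 10000, cycling markers to at most 1.26 and stem cell markers to at most 0.921. Of 6 tuft markers 2 were at 0, as were 2 of the 4 B cell and blood markers in the table. Markers of enteroendocrine (hormone) cells summed to 0.645, 1.38 and 1.33. The 1 of them tested between libraries had a ratio of B + A 0 to AOS 0 of 2.54. Goblet, Paneth and T cell genes were present and differed between libraries, as described further below.

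The cells were set against 2 other parts of the same libraries. Proximal comparison cells were an equal number of cells per library with the highest sum of Rbp2, Adh6a, Gsta1, Apoa4, Creb3l3 and Leap2, genes of the duodenum and jejunum. Crypt comparison cells were 568 cells high in Lgr5, Olfm4 and other stem cell genes.

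Fabp6, the bile acid carrier, helped to choose the cells and was detected in each of them. The gene lies at chr11:43596049-43601540 on the minus strand of GRCm38. Its level was 569, 573 and 592, against 4.03, 5.74 and 5.25 in the proximal comparison cells. After every cell was thinned to 1000 UMIs, Fabp6 was seen in 28.0%, 48.7% and 37.8% of proximal cells and in 39.7%, 35.6% and 44.0% of T cells, which should lack it, against 100% of ileal enterocytes. The share in proximal cells was below that in T cells in AOS 0 and B + A 10 and above it in B + A 0, where the intervals overlap (40.6 to 56.9 and 21.9 to 51.2). The part of free RNA in these molecules was not tested. Median depth before thinning was 4021 UMIs in proximal cells, 4136 in T cells and 5160 in ileal enterocytes. Among single ileal enterocytes the median was 546, 514 and 527, with the 10th percentile at 277, 269 and 243 and the 90th at 884, 921 and 1035. The lowest single cell had 99.6, 70.2 and 24.9. These 7% of the eligible cells held 54.2%, 55.1% and 68.1% of all Fabp6 UMIs of their library.

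The 250 bases before the start of Fabp6 are shown because Fabp6 is a known target of the bile acid receptor Nr1h4. They were searched for the inverted repeat that this receptor is known to bind, AGGTCA, any 1 base, then TGACCT, with up to 2 mismatches in the 12 bases of the half-sites. The repeat reads the same on both strands. The sequence is from RefSeq on GRCm38.p6, chr11:43601563-43601812, minus strand, written 5′ to 3′ with the 2 matches in capitals.
Fabp6 upstream: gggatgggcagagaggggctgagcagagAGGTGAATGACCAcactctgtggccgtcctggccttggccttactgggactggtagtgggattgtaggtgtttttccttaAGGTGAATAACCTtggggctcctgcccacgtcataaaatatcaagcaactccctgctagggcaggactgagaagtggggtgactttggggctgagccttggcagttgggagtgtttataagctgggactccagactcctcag
The matches lie at -222 to -210 and at -142 to -130 from the RefSeq start (chr11:43601772-43601784 and chr11:43601692-43601704), and each has 2 mismatches. Of 32851 windows of the same length before RefSeq starts, 315 (0.959%) held a match and 4 (0.0122%) held 2 or more. The windows of Slc10a2, Slc51a, Slc51b and Nr0b2 held none. A match describes letters in a window and is not evidence of binding.

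Slc10a2, the uptake transporter at chr8:5083219-5105351 on the minus strand, helped to choose the cells and was lower in the other cells. Its level was 6.98 (6.59 to 7.38), 5.61 (5.19 to 6.07) and 4.49 (4.11 to 4.89). The next 7% of cells by score had 0.958, 1.08 and 0.460, and the proximal comparison cells 0.0342, 0.0516 and 0.0593. AOS 0 was the highest and B + A 10 the lowest, without overlap of the counting intervals, and the ratio of B + A 10 to AOS 0 was 0.643 (0.580 to 0.713). Since Slc10a2 helped to choose the cells, the score was also computed from one random part of each cell's UMIs and the level from the rest. The ratio was then 0.927 for B + A 0 to AOS 0, 0.692 for B + A 10 to B + A 0 and 0.642 for B + A 10 to AOS 0. Each library still gave a fixed share of its cells, so the lower limit of B + A 10 also bears on these ratios. Thinned to 1000 UMIs, 47.2%, 44.2% and 36.5% of the cells had Slc10a2, against 0.152% of all proximal comparison cells.

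The exporter genes were also high. Slc51a, at chr16:32474504-32487879 on the minus strand and no part of the rule, had levels of 14.6 (14.1 to 15.2), 13.5 (12.8 to 14.2) and 13.2 (12.6 to 13.9). The proximal comparison cells had 2.85, 2.75 and 2.75, so the level in ileal enterocytes was 5.13, 4.91 and 4.82 times as high. Slc51b, at chr9:65412714-65422955 on the minus strand, had levels of 13.8, 15.0 and 13.3, and 2.61, 2.47 and 2.33 in proximal cells. Both partners were at similar multiples of the proximal level in all 3 libraries. Slc51b helped to choose the cells, so its multiple is partly set by the rule and nothing is read from the likeness. The ileal enterocytes held 31.3%, 29.8% and 32.4% of the Slc51a UMIs of their libraries. They held 75.1%, 70.5% and 79.1% of the Slc10a2 UMIs, but Slc10a2 helped to choose the cells and Slc51a did not. These shares therefore cannot show which gene was more unevenly spread.

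Nr1h4, the bile acid receptor at chr10:89454234-89533585 on the minus strand, had levels of 1.34 (1.18 to 1.52), 1.19 (0.994 to 1.41) and 1.07 (0.895 to 1.28). The intervals of neighbouring libraries overlap. Its level was 5.41, 3.40 and 4.53 times that of proximal comparison cells. The receptor's other known targets were scarce. Fgf15, at chr7:144896531-144900953 on the plus strand, gave 24, 15 and 5 UMIs in 20, 10 and 5 of the ileal enterocytes. These were 24 of the 51, 15 of the 26 and 5 of the 10 Fgf15 UMIs of the libraries. None was found in the 660 proximal cells, so the level was at least 10.1-fold higher in ileal enterocytes, with the limit set at 3 UMIs over the pooled proximal cells. Nr0b2 (SHP), a repressor under the same receptor, gave 13, 8 and 4 UMIs, and 7, 6 and 9 in proximal cells. Too few molecules were counted for a comparison between libraries.

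Other bile acid transporters did not share the ileal pattern. Abcc3, an alternative basal exporter, had levels of 0.362, 0.443 and 0.456, against 0.530, 0.658 and 0.747 in proximal cells. Abcc2, an exporter of conjugates into the lumen, gave 37 UMIs in ileal enterocytes and 72 in proximal cells. Abcc4 gave 3 UMIs and Osbpl1a 2, at or under the limit of 3 counts, and Slc27a5, the liver enzyme that activates bile acids, gave 0, which allows a level of up to 0.00739. Of the 14 genes of the bile acid list 12 were in the table. Of the 4 that neither rule used and that passed 100 UMIs, Slc51a and Nr1h4 were at least 2-fold higher than in proximal cells in every library, Abcc2 was at least 2-fold lower, and Abcc3 was neither.

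The further genes of the rule have other roles. Tmigd1, an adhesion protein of the brush border, had levels of 14.4 (13.9 to 15.0), 10.9 (10.3 to 11.5) and 8.49 (7.97 to 9.04), and 0.248, 0.181 and 0.190 in proximal cells. The Tmigd1 ratio of B + A 10 to AOS 0 was 0.588 (0.546 to 0.634), and 0.573 with the score and the level taken from separate UMIs. The lower limit of B + A 10 bears on both values. Mgat4c, a glycosyltransferase of the N-glycan pathway, had 7.27, 5.63 and 5.67. Mep1a, the alpha subunit of the brush border protease meprin, had 4.02, 3.39 and 3.22. For all 6 rule genes but Fabp6 and Slc51b the AOS 0 level was the highest of the 3 libraries.

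**Figure D1:**
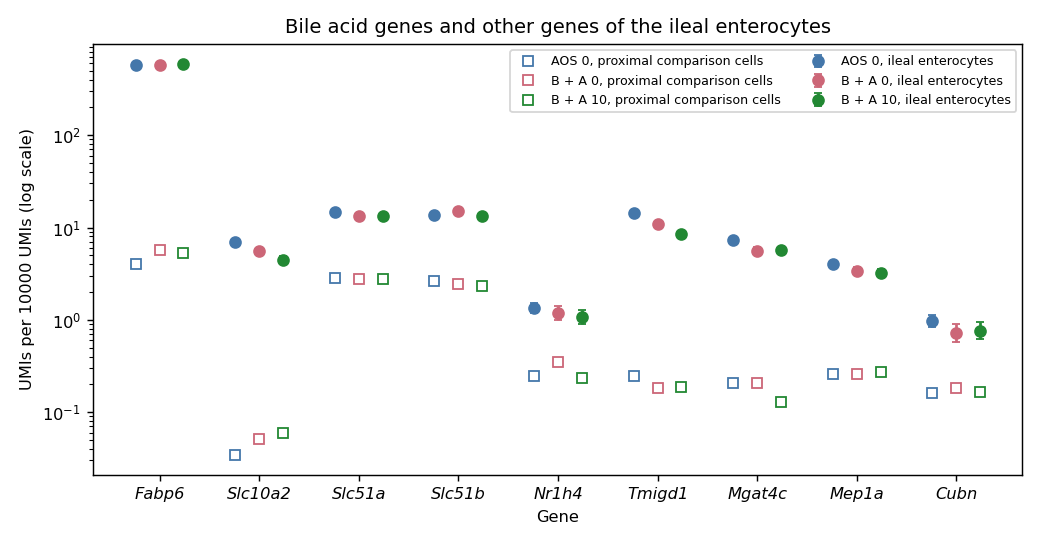
Levels of 9 genes (x axis) in UMIs per 10000 UMIs (y axis, log scale) in ileal enterocytes (filled circles with 95% counting intervals, mostly smaller than the symbol) and proximal comparison cells (open squares), coloured by library. Every filled circle lies above the squares of its gene, and the circles of Slc10a2 and Tmigd1 step down from AOS 0 to B + A 10.

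The cells shade into their neighbours along the score. The next 7% of cells had a pooled Fabp6 level of 235 and a Slc10a2 level of 0.864. In AOS 0 the Fabp6 level over rising score classes was 2.11 in the lower 50% of cells, 5.05 from the 50th to the 70th percentile, 16.1 to the 80th, 81.1 to the 86th, 264 to the 93rd and 569 above it. In B + A 10 it was 17.2 from the 80th to the 86th percentile and 159 from the 86th to the 93rd. Fabp1, the fatty acid carrier of the proximal gut, ran the other way in AOS 0, from 99.6 between the 50th and 70th percentiles to 20.7, 6.98 and 3.76 in the last 3 classes. In B + A 10 Fabp1 was 98.2, 33.8 and 7.82 in those classes, so cells with Fabp1 reached higher score percentiles there. Slc51a had 8.23, 7.86 and 5.82 from the 86th to the 93rd percentile in the 3 libraries and 14.6, 13.5 and 13.2 in the ileal enterocytes.

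**Figure D2:**
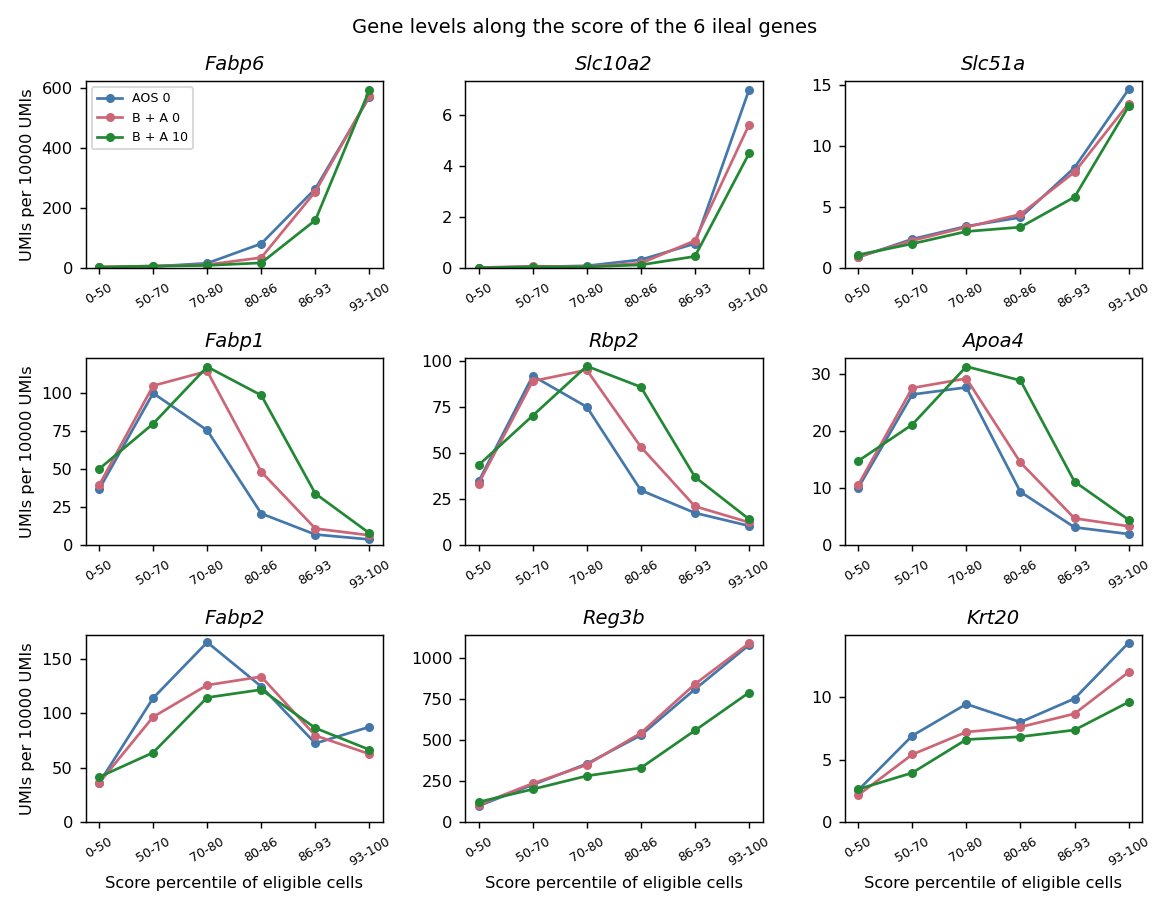
Levels of 9 genes in UMIs per 10000 UMIs (y axes, linear and starting at 0) in 6 classes of eligible cells ranked by the summed score of the 6 rule genes (x axes, percentiles), 1 line per library. Fabp6, Slc10a2, Slc51a and Reg3b are highest in the last class, which is the ileal enterocytes, while Fabp1, Rbp2 and Apoa4 peak before the 86th percentile and are low in the last class.

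With 1 limit for all libraries, cells of this kind made up the smallest share in B + A 10. At the limit of AOS 0 the share of eligible cells was 6.98% (6.11 to 7.93), 5.82% (4.88 to 6.88) and 4.2% (3.61 to 4.86). B + A 0 differed from AOS 0 by -1.16 percentage points (-2.47 to 0.19), an interval that includes 0, and by 0.022 points (-1.35 to 1.44) with a score from Fabp6, Slc10a2 and Slc51b alone. As a share of all cells the difference was -1.30 points (-2.26 to -0.32), which does not include 0, so whether these libraries differed depended on the measure. B + A 10 differed from B + A 0 by -1.62 points (-2.82 to -0.50). As a share of all cells that difference was -0.77 points (-1.63 to 0.03), an interval that includes 0. The Agr2 and defensin limits had left out 982 of 4106, 995 of 3195 and 1233 of 5352 cells, so the choice of denominator matters. Thinning every cell to 1000 UMIs before scoring gave 7.0%, 6.08% and 4.62%. Other ways in which the shallow library may differ were not tested. The share with Fabp6 at 100 per 10000 or more, a limit chosen after the data were seen, was 14.9%, 12.5% and 10.3% of eligible cells after thinning, with B + A 0 lower than AOS 0 by a difference of -2.34 points (-4.19 to -0.45). Of all cells it was 12%, 9.26% and 8.24%, where the difference between B + A 0 and AOS 0 was -2.74 points (-4.15 to -1.32) and that between B + A 10 and B + A 0 was -1.02 points (-2.29 to 0.20) and not clear of 0. With 1 pool per group these intervals do not cover differences between mice or in the length of ileum taken.

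**Figure D3:**
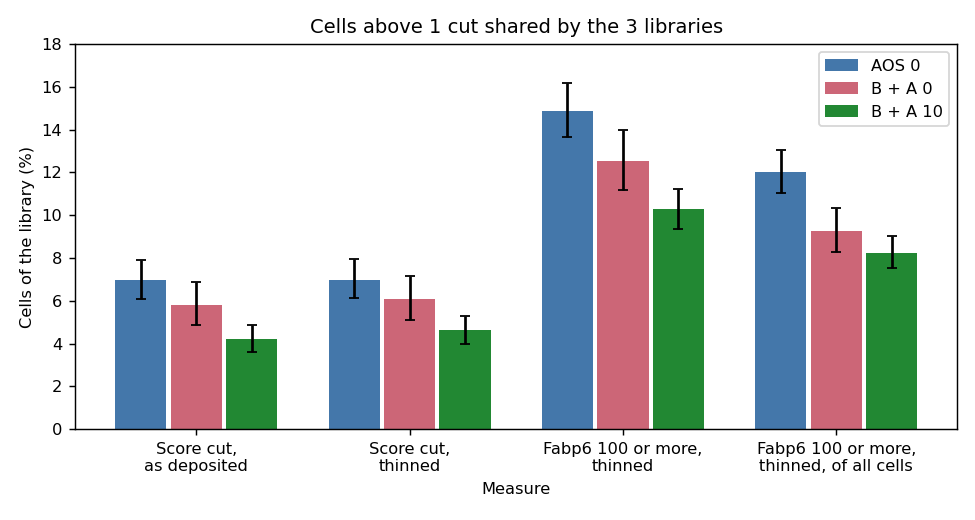
Percentage of a library's cells (y axis, from 0) above 1 limit shared by the 3 libraries, for 4 measures (x axis), with exact 95% binomial intervals that cover counting error only. AOS 0 is highest and B + A 10 lowest in each measure, and the intervals of neighbouring libraries overlap in several of them.

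Set against proximal comparison cells, the ileal enterocytes were high in many distal genes and many genes of the antimicrobial and villus bottom list. They were low in many genes for fat, sugar and drug handling, while transporters for ions and vitamins divided by gene. Of 5390 genes with at least 100 UMIs, 185 (3.43%) were at least 2-fold higher in every library and 339 (6.29%) at least 2-fold lower. Both cell sets were chosen on these same values, so the contrast is a description. It also spans the villus position of the cells, which neither rule set.

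Genes of the distal gut other than those of the rule followed the label. Of 37 distal regional genes tested, 15 were at least 2-fold higher in every library and 0 lower, with a median ratio of 1.59 against 0.909 over all genes tested. Phgr1 had levels of 53.4, 50.2 and 54.1, against 20.05, 21.2 and 23.9 in proximal cells. Cubn (cubilin), the receptor that takes up vitamin B12 with its carrier in the ileum, had 0.979, 0.717 and 0.765, which was 6.03, 3.97 and 4.61 times the proximal level. Its partner Amn had 2.48, 2.11 and 2.55 and was 1.35, 0.996 and 1.53 times the proximal level. Of the 7 genes of the vitamin B12 and endocytosis list tested, 1 was at least 2-fold higher and 1 lower. Pmp22, Neu1 (the lysosomal sialidase) and Abcb1a (the drug efflux pump P-glycoprotein) were between 3.69 and 22.7 times as high as in proximal cells.

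Transport of ions and small acids divided by gene. Of 23 genes tested 6 were at least 2-fold higher and 7 lower. Slc5a8, which carries short-chain fatty acids with sodium, had levels of 2.69, 2.33 and 2.26, between 13.1 and 25.8 times the proximal level. Slc13a1, a sulfate transporter, had 6.54, 6.12 and 5.14 and was 3.75, 4.35 and 2.97 times as high. Slc34a2, a phosphate transporter of the ileum, had 3.31, 2.87 and 2.48 and was 2.65, 4.12 and 3.73 times as high. The hormones of the guanylin pair went opposite ways. Guca2a (guanylin) had 21.8, 23.0 and 24.1, from 5.12 to 5.46 times the proximal level, and Guca2b (uroguanylin) had 21.2, 18.6 and 20.6, with ratios of 0.388, 0.406 and 0.426. S100g, the calcium binding protein of the duodenum, had 1.00, 1.51 and 1.09 against 14.3, 31.0 and 29.0.

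Among 12 amino acid and peptide transporters 2 were at least 2-fold higher and 5 lower, with a median ratio of 0.583. Slc6a14, a broad carrier of neutral and basic amino acids, had levels of 0.504, 1.12 and 0.808. Proximal cells had 1, 0 and 0 UMIs, which gives a ratio of 58.9 (10.3 to 2354) in AOS 0 and levels at least 28.8-fold higher in B + A 0 and at least 22.7-fold higher in B + A 10. The ileal enterocytes held 76.7%, 80.3% and 74.6% of the Slc6a14 UMIs of their libraries. Slc1a1, the glutamate transporter, had 1.07, 1.04 and 0.989, against 0.00854, 0.0258 and 0.0356 in proximal cells, where 1, 2 and 3 UMIs were counted. Slc15a1, the peptide transporter, had 1.54, 1.75 and 2.97, from 0.426 to 0.567 times the proximal levels of 2.97, 4.12 and 5.25.

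Genes of the antimicrobial and villus bottom list stood out. This list mixes defence genes with genes of the lower villus, and the part of villus position in the contrast was not tested. Of 13 tested 6 were at least 2-fold higher in every library and 1 lower, with a median ratio of 1.78. Reg3b, a lectin against bacteria, had 1081, 1091 and 791 UMIs per 10000, from 4.53 to 5.38 times the proximal level. Reg3g, its relative, had 667, 718 and 536. Both lectins were lower in B + A 10 than in the other libraries. Saa1 (serum amyloid A), which the ileal epithelium makes in contact with certain bacteria, had 6.46, 11.1 and 6.65, against 0.0342, 0.103 and 0.107. Duox2 and its maturation factor Duoxa2, which together make hydrogen peroxide, had 2.17, 2.43 and 3.09 and 0.736, 1.10 and 0.860, against 0.0513, 0.142 and 0.107 and 0.0256, 0.0516 and 0.142 in proximal cells. Nos2, the inducible nitric oxide synthase, had 0.311, 0.460 and 0.636 against 0.0256, 0.0129 and 0.0474. Reg1 was the exception and had 0.413, 0.469 and 0.989, against 23.1, 23.9 and 39.7.

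Fat absorption was low against the proximal comparison cells, which were chosen for genes of the proximal gut. The whole list summed to 223, 201 and 207 in ileal enterocytes and 1196, 1080 and 932 in proximal cells. Over all cells of the libraries the sum was 174, 165 and 195, below that of the ileal enterocytes. Of 19 genes tested 0 were at least 2-fold higher and 10 lower, with a median ratio of 0.405. Fabp1 had levels of 3.76, 6.47 and 7.82, against 297, 314 and 292. Apob and Mttp, the scaffold protein and the loading enzyme of chylomicrons, were at 0.380 to 0.432 and 0.241 to 0.265 times the proximal level. Apoa1 was less low, with 90.9, 92.2 and 92.2 against 321, 273 and 234. Fabp2, the general intestinal fatty acid carrier, had summed levels of 87.6, 62.7 and 66.6, but the median ileal enterocyte had 30.3, 31.1 and 28.4, and the cells at the 90th percentile had 356, 216 and 271.

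Sugar handling and drug metabolism were low against the proximal cells as well. The sugar list summed to 15.8, 15.7 and 14.6 in ileal enterocytes, above 11.1, 9.95 and 12.1 in all cells. The xenobiotic list summed to 39.6, 34.2 and 33.2, above 19.4, 17.1 and 19.1 in all cells. Of 10 sugar genes 0 were higher and 8 lower, with a median ratio of 0.308. Slc2a2 (GLUT2) had 0.0340, 0.0885 and 0.0344 against 1.44, 1.26 and 1.32, and the sodium-driven glucose carrier Slc5a1 had 4.74, 5.24 and 5.23 against 11.5, 10.5 and 11.1. Of 22 xenobiotic genes 1, Abcb1a, was higher and 12 were lower, with a median ratio of 0.411. Cyp2b10 had 0.0170, 0.0354 and 0.0258 against 1.48, 1.12 and 1.14. Of 40 proximal regional genes outside the rules 0 were higher and 37 lower, with a median ratio of 0.207.

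Brush border enzymes were mixed, with 3 of 21 at least 2-fold higher and 7 lower. Xpnpep2, an aminopeptidase, had 1.61, 1.44 and 1.5 and was 3.55, 3.86 and 3.95 times the proximal level. Lct (lactase) had 0.175, 0.257 and 0.438 against 6.15, 7.06 and 6.08, while Anpep, the main neutral aminopeptidase, had 22.5, 20.7 and 18.7 against 24.6, 22.1 and 24.4. Of 14 microvillus genes 0 passed 2-fold either way, where 3.43% of all genes tested were higher and 6.29% lower. Their median ratio was 0.858 against 0.909 over all genes tested. With so few genes the count is near the share over all genes, and nothing is read from it. Of 18 junction genes 2 were higher, namely Cldn2 with 1.30, 1.25 and 1.38 against 0.137, 0.258 and 0.213, and Cldn23. Villus tip genes outside the rules, so without Apoa4, gave 0 higher and 1 lower of 9. Krt20, a keratin of mature villus cells, had 14.4, 12.03 and 9.63, from 1.04 to 1.28 times the proximal level.

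Regulators divided by gene. Of 22 nuclear receptors and transcription factors tested outside the rules 3 were at least 2-fold higher, Nr1h4 among them, and 5 lower, with a median ratio of 1.01. Nr5a2 (LRH-1) had 0.306, 0.257 and 0.335 and was 3.25, 3.32 and 2.18 times the proximal level. Cdx1, a homeobox factor of the intestine, had 1.05, 0.664 and 0.860 and was 3.06, 2.71 and 3.15 times the proximal level. Gata4, which is known to repress ileal genes in the jejunum, had 0.0622, 0.0708 and 0.138 against 0.513, 0.490 and 0.415. Onecut2 had 0.0396, 0.0266 and 0.0258 against 1.49, 1.19 and 1.72. Hnf4a, shared by enterocytes of the whole gut, had 2.54, 2.37 and 1.89 and was 1.51, 1.61 and 1.43 times the proximal level.

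Counts for other lists stand beside 3.43% higher and 6.29% lower over all 5390 genes tested. Antigen presentation had 0 higher and 2 lower of 13, p53 targets and apoptosis 0 and 2 of 8, and endoplasmic reticulum and oxidative stress 1 and 1 of 16. The list that the study drew up for mature proximal enterocytes had 6 higher and 166 lower of 725 genes, and its list for mature distal enterocytes had 64 higher and 3 lower of 326. Those lists were made from these same cells and are not independent of the contrast.

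**Figure D4:**
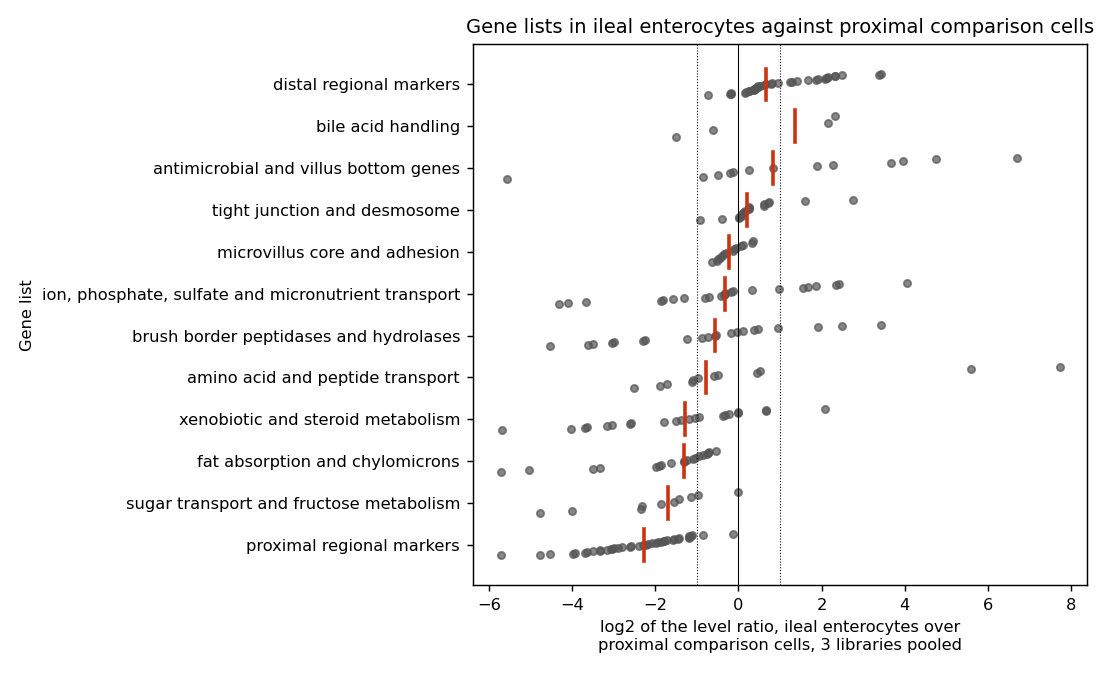
Log2 ratio of the level in ileal enterocytes to that in proximal comparison cells, 3 libraries pooled (x axis), for each tested gene outside the rules (grey points) of 12 lists (y axis), with the list's median as a red bar and dotted lines at 2-fold. Distal genes and those of the antimicrobial and villus bottom list lie to the right. Sugar, fat, xenobiotic and proximal genes lie to the left, and microvillus genes near 0.

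The comparison of B + A 0 with AOS 0 asks how busulfan without AOS bears on these cells. Of the marker genes of other cell types tested, 6 of 6 Paneth and 5 of 7 goblet genes were at least 1.5-fold higher in B + A 0. Of 3085 genes with at least 100 UMIs in the 2 libraries together, 59 (1.91%) were at least 1.5-fold higher and 118 (3.82%) at least 1.5-fold lower. The excess of lower genes did not hold under every setting, since 29 were higher and 17 lower with 300 UMIs required, 26 and 9 at a fold of 2, and 18 and 17 in thinned cells. The median ratio of all genes was 0.943. Among the 59, 34 were also at least 1.5-fold higher in proximal comparison cells and 17 were defensins or markers of other cell types. Among the 118 lower genes 26 were shared with proximal cells and 0 were such markers.

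Of the genes with the highest ratios, several belong to Paneth and goblet cells. Ang4 had a ratio of 3.88 (3.10 to 4.89), Lyz1 (lysozyme) 3.47 (2.99 to 4.04) and Retnlb, a goblet cell product, 4.05 (3.33 to 4.94). The proximal comparison cells gave 2.45, 3.13 and 2.50 for the same genes, so these molecules were not particular to the ileum. The Paneth list as a whole had summed levels of 17.6, 50.3 and 38.2 in ileal enterocytes and 23.4, 53.4 and 33.9 in proximal cells, with 6 of 6 tested genes higher in B + A 0. In single ileal enterocytes the median of that sum was 16.2, 45.8 and 27.4, so it was spread over most cells. The goblet list had summed levels of 47.6, 97.4 and 141. Its per-cell medians were 19.95, 56.6 and 49.7, the highest cells had 2759, 1885 and 3103, and the 21, 15 and 28 richest cells held 65.5%, 51.7% and 69.8% of the goblet UMIs. Whether free RNA, doublets or mixed cells gave these molecules was not tested.

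Outside those lists Ceacam2, an adhesion molecule, had levels of 0.0792, 1.13 and 0.275, a ratio of B + A 0 to AOS 0 of 14.3 (8.22 to 26.9), and 5.74 in proximal cells. Ccl5, a chemokine of T cells, had 1.07, 4.56 and 6.90 and a ratio of 4.26 (3.60 to 5.06). The T cell list summed to 1.06, 3.36 and 6.12 in the same cells. Gstp1, a glutathione transferase, had a ratio of 3.35 (2.67 to 4.24), with 3.94 in proximal cells. Saa1 was higher in B + A 0 by a ratio of 1.72 (1.59 to 1.87), and Slc6a14 by 2.22 (1.68 to 2.94). For Slc6a14, with 89 UMIs in AOS 0 and 126 in B + A 0, this was the 1 amino acid transporter of 11 past 1.5-fold.

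On the lower side St6galnac1, a sialyltransferase of mucin glycans, gave 125 UMIs in AOS 0 and 0 in each busulfan library. It was at least 26.6-fold lower in B + A 0 and at least 27.4-fold lower in B + A 10, and proximal cells had levels of 0.282, 0.0129 and 0. Ifi27l2b, an interferon-induced gene, had levels of 8.43, 3.14 and 19.7. Its ratio of B + A 0 to AOS 0 was 0.373 (0.331 to 0.419), close to 0.336 in proximal cells. S100a11 was lower at 0.378 (0.255 to 0.547) and 0.367 in proximal cells, whereas Chd4, a chromatin remodeller, was at 0.461 (0.291 to 0.709) with 1.03 in proximal cells.

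Of 13 antigen presentation genes 0 were at least 1.5-fold higher and 2 lower, with a median ratio of 0.881. Cd74, the invariant chain of class II, had 16.8, 9.05 and 13.7, a ratio of 0.540 (0.502 to 0.580), and H2-Ab1 had 4.43, 2.35 and 3.25, a ratio of 0.530 (0.459 to 0.609). Both were past 1.5-fold, and proximal cells gave 0.466 and 0.582. The 6 bile acid genes tested had ratios from 0.805 for Slc10a2 to 1.22 for Abcc3. None passed 1.5-fold, as was so for most genes tested, and Fabp6, Slc10a2 and Slc51b had chosen the cells, so nothing is read from that count. Of 36 distal genes 0 were higher and 1 lower, and of 32 proximal genes 3 were higher and 2 lower. Fabp1 was among the higher ones with a ratio of 1.72 (1.55 to 1.92), against 1.05 in the proximal comparison cells. Its level in ileal enterocytes stayed far below theirs in every library.

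The comparison of B + A 10 with B + A 0 asks how AOS given after busulfan bears on the cells. Of 6 Paneth genes tested 4 were at least 1.5-fold lower in B + A 10 and 0 higher. Of 2631 genes tested, 114 (4.33%) were at least 1.5-fold higher and 45 (1.71%) at least 1.5-fold lower, with a median ratio of 1.06. At a fold of 2 the balance turned, with 8 higher and 12 lower. Of the 114, 24 were also higher in proximal comparison cells and 16 were ribosomal protein genes. The summed share of ribosomal protein genes in ileal enterocytes was 5.35%, 5.92% and 7.56%. Of the 45 lower genes 11 were also lower in proximal cells and 8 were defensins or markers of other cell types.

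Several genes with the highest or lowest ratios are known to be induced by interferon, though no list of such genes was counted. Ifi27l2b was 6.28 times as high (5.61 to 7.04) in B + A 10, with 6.47 in proximal cells. Ifi27l2a, of the same family, had levels of 6.59, 14.6 and 6.26, a ratio of 0.428 (0.391 to 0.467), with 0.803 in proximal cells. Ifit2 had 0.798, 0.992 and 0.327, a ratio of 0.329 (0.222 to 0.480), with 1.41 in proximal cells. Isg15, chosen after its values were seen, had 8.69, 8.93 and 4.96, a ratio of 0.555 (0.5 to 0.616), with 1.47 in proximal cells. Ifi27l2b thus had similar ratios in ileal and proximal cells, while Ifit2 and Isg15 lay on opposite sides of 1 in the ileal and proximal cells. Near-identical family members can share reads, so values of the Ifi27l2 genes are less certain.

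Lyz1, Ang4 and Mptx2, all of Paneth cells, had ratios of 0.459, 0.359 and 0.362, and 0.485, 0.431 and 0.357 in proximal cells. Ceacam2 was lower at 0.243 (0.159 to 0.360). Stx6, a membrane fusion protein, was at 0.390 (0.281 to 0.534), with 0.232 in proximal cells.

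On the higher side Gzmb, granzyme B of cytotoxic lymphocytes, had a ratio of 2.95 (1.86 to 4.84) and Gzma one of 1.90 (1.62 to 2.23), with 1.72 and 1.87 in proximal cells. Both are T cell list genes, the list whose sum was 6.12 in B + A 10 against 3.36 in B + A 0. The per-cell medians of that sum were closer, at 2.64 and 2.0, and the richest 28 of 288 and 15 of 154 cells held 67.1% and 45.6% of its UMIs. The part of T cell RNA or mixed cells in these ratios was not tested. Hspa1b, a heat shock protein, had 0.136, 0.416 and 0.903, a ratio of 2.17 (1.52 to 3.13), with 0.646 in proximal cells. Reg1 had a ratio of 2.11 (1.51 to 2.98), with 1.66 in proximal cells, and Alyref, an RNA export factor, 2.45 (1.67 to 3.67) with 2.27. Slc15a1 was the 1 of 11 amino acid and peptide transporters past 1.5-fold, with a ratio of 1.70 (1.42 to 2.03), and 1.28 in proximal cells. Cd74 had a ratio of 1.51 (1.40 to 1.64), which put B + A 10 between the other libraries.

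Genes of the antimicrobial and villus bottom list were mostly lower in B + A 10 than in B + A 0. Of these lower genes only Saa1 was past 1.5-fold, while Reg1 was higher as given above. The Saa1 ratio was 0.598 (0.546 to 0.654), with 1.03 in proximal cells. The Reg3b ratio was 0.725 (0.719 to 0.731) and the Reg3g ratio 0.746 (0.738 to 0.754), with 0.827 and 0.849 in proximal cells. The median ratio of the 13 genes was 0.796 against 1.06 over all genes tested. The 6 bile acid genes, 3 of them genes of the rule, had ratios from 0.799 for Slc10a2 to 1.03 (1.02 to 1.04) for Fabp6.

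**Figure D5:**
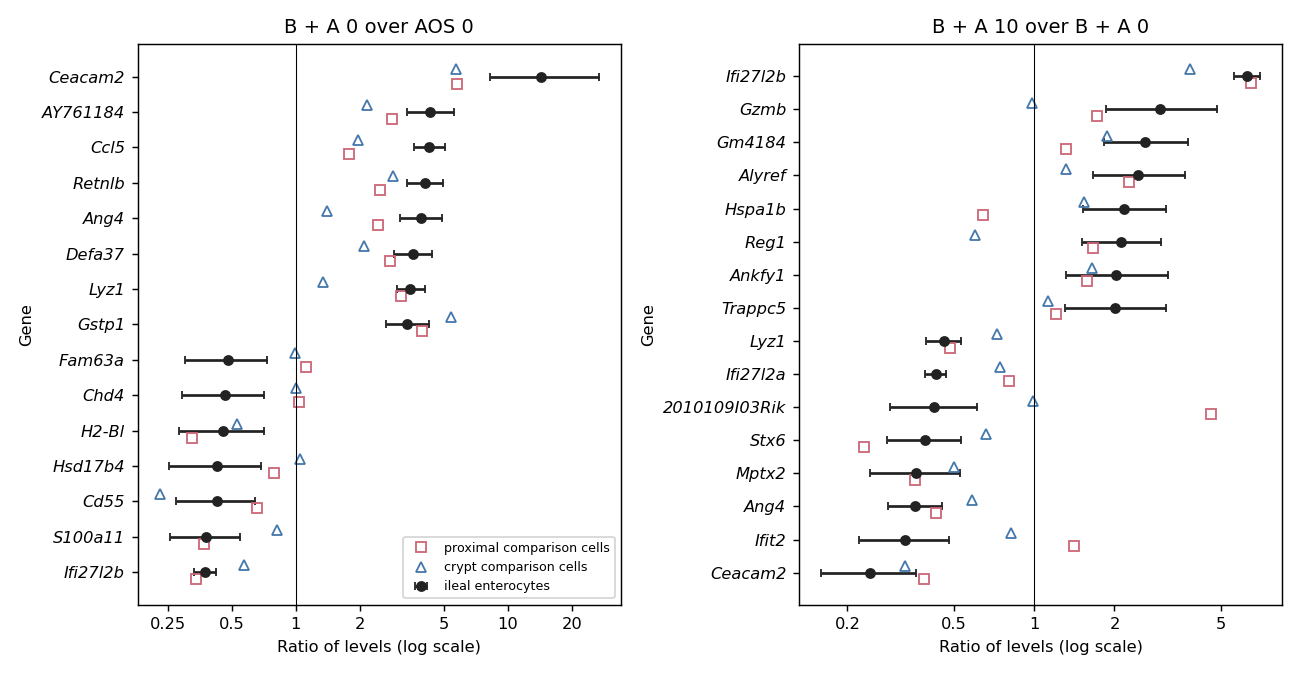
Ratio of levels between 2 libraries (x axes, log scale) for the genes with the highest and lowest ratios (y axes) in ileal enterocytes (black circles with 95% counting intervals), with the ratio of the same gene in proximal (squares) and crypt (triangles) comparison cells. St6galnac1, at 0 UMIs in B + A 0, cannot be placed on the log axis and is left out. Ceacam2 and Ifi27l2b lie on the same side of 1 in all 3 cell sets, and Ifit2 and 2010109I03Rik have ileal and proximal points on opposite sides.

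Against AOS 0, B + A 10 had the most genes apart. Of 3209 tested 193 (6.01%) were at least 1.5-fold higher and 143 (4.46%) at least 1.5-fold lower, with 88 and 38 of these shared with proximal cells and 27 ribosomal protein genes among the higher. Scaled without ribosomal protein, defensin and rule genes, the counts were 236 higher and 113 lower. Of the 6 bile acid genes Slc10a2 was past 1.5-fold, on the lower side, with the ratio of 0.643 given above. Fabp6 had a ratio of 1.04 (1.03 to 1.05) and Slc51a 0.905 (0.849 to 0.964). Krt20 was lower by less than 1.5-fold, with a ratio of 0.670 (0.624 to 0.719), and 0.583 in proximal cells. Sis, sucrase-isomaltase, had 5.60, 4.36 and 3.47, a ratio of 0.620 (0.551 to 0.697), and 0.553 in proximal cells. Slc15a1 was higher, with a ratio of 1.93 (1.64 to 2.27), and 1.77 in proximal cells.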

How the data were processed

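The authors counted UMIs with Cell Ranger 2.2.0 on a 10x mm10 reference, forcing the number of cells in each library. They removed cells with under 200 genes and genes in under 3 cells. The deposited table holds natural log values, ln(1 + x) with x a cell's UMIs per 10000, for 13891 genes and 12653 cells. From these the whole UMIs were recovered, and 100% of the 24333763 values above 0 came out whole within 0.01. No column of another sample was present.

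UMIs were summed over the cells of a set and divided by the sum of all UMIs. Levels have exact Poisson intervals, ratios exact binomial ones, shares exact binomial ones and differences of shares Newcombe intervals, all at 95%. Genes with at least 100 UMIs entered the counts. The fold limits were 1.5 between libraries and 2 against proximal cells, and no test was run, since each group is 1 library. For shares of cells with a UMI each cell was thinned to 1000 UMIs. Doublets were scored with Scrublet in scanpy 1.11.5 (30 components), and the highest 5% per library were marked and kept. The steps used Python 3.11.15, numpy 2.4.6, scipy 1.17.1, pandas 2.3.3, anndata 0.12.19 and matplotlib 3.10.9, and were tested on simulated counts. Gene positions are from GENCODE vM21 (GRCm38) and upstream sequences from RefSeq (GRCm38.p6).

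Genes were named by 1 rule: the rule genes, all bile acid genes, per list the 4 genes with the most UMIs, the 10 highest and 10 lowest folds against proximal cells, and the 8 highest and 8 lowest ratios between libraries. Further members of the lists were named as examples after their values were seen. The cells and the gene lists were chosen with earlier results of these data known. Ratios of sparse 3′ counts compare 1 gene between cells and not 1 gene with another.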

Additional observations from a re-analysis of the deposited data

How the results depend on the processing

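No paired analysis was possible because each group has 1 library, and for the same reason no replicate could be left out. With 300 instead of 100 UMIs required, 29 genes were higher and 17 lower in B + A 0 than in AOS 0, 37 and 16 in B + A 10 than in B + A 0, 41 lower and 91 higher in B + A 10 than in AOS 0, and 102 higher and 199 lower than in proximal cells. With 30 UMIs these were 292 and 522, 560 and 206, and 629 higher and 447 lower, with 279 higher than in proximal cells. With cells thinned to 1000 UMIs they were 18 and 17, 42 and 16, and 72 and 36, with 46 higher and 134 lower than in proximal cells. The same limit of 100 UMIs then leaves fewer genes to test. With a fold of 2 between libraries they were 26 and 9, 8 and 12, and 49 and 12. With the score and the levels from separate random parts of the UMIs, 69 genes were lower in B + A 0 than in AOS 0, 60 higher and 27 lower in B + A 10 than in B + A 0, and 119 higher than in proximal cells, on fewer UMIs per gene. The share of cells at a common limit differed by -4.62 points between B + A 10 and AOS 0 with the Fabp6 limit, a measure added after the data were seen. Every other count of genes under the remaining settings (top 5% or 10% of cells, a score from 3 genes, at least 500 genes per cell, marked doublets left out, means over cells, another scaling) stayed within 1.5 times its value. The difference between B + A 10 and AOS 0 was below 0 in all settings run, that between B + A 10 and B + A 0 was -0.77 points (-1.63 to 0.03) as a share of all cells, and that between B + A 0 and AOS 0 ranged from -2.74 points, with Fabp6 at 100 or more in all thinned cells, to 0.022 points. For single named genes 3204 values over 123 genes and 9 alternatives were compared, of which 418 moved by more than their counting interval, 167 of them in thinned cells. The Mt1 ratio of B + A 10 to B + A 0, 1.54 in the ileal enterocytes, was 0.993 in the top 10% of cells, and the cause was not tested. The number of genes past 1.5-fold thus depends on the UMI limit, and no interval covers the spread between mice.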

Other observations

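Ileal enterocytes with the most Fabp6 differed from those with the least, a split chosen after the data were seen. Within each library the 72, 51 and 96 cells with the highest Fabp6 level (medians 808, 824 and 886) were set against as many with the lowest (338, 335 and 318), with Fabp6 left out of the totals. Fabp6 was also part of the score that chose the cells, so a cell with less Fabp6 needed more of the other rule genes to be included, and ratios of Slc10a2, Slc51b and the other rule genes are shaped by that choice. Of 2873 genes 8, Fabp6 included, were at least 1.5-fold higher in every library and 19 at least 1.5-fold lower. The higher ones included Fam151a, with ratios of 2.11, 3.86 and 2.28, and Arg2, the mitochondrial arginase, with 1.55, 1.73 and 1.51. Slc51a and Slc51b were higher with ratios of 1.37, 1.48 and 1.77 and of 1.24, 1.42 and 1.71, while Slc10a2 had 0.817, 0.946 and 1.03.

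The lower ones held a group of surface and secretory genes. Slc6a14 had ratios of 0.0927, 0.0729 and 0.0984, Clca4a 0.125 (0.0645 to 0.223), 0.224 (0.113 to 0.414) and 0.0695 (0.0138 to 0.217), and 2010109I03Rik 0.0283 (0.00337 to 0.106), 0.0555 (0.0147 to 0.148) and 0.0652 (0.00757 to 0.255). All 3 genes were thus higher in the cells with the least Fabp6, where Fabp6 was still abundant. Saa1 had 0.492, 0.227 and 0.751. The goblet genes Muc2, with 0.287, 0.288 and 0.342, and Tff3, with 0.496, 0.430 and 0.287, were also lower where Fabp6 was high. Median depth was 7092, 6345 and 3392 UMIs in the cells with the most Fabp6 and 6527.5, 6366 and 3191.5 in those with the least. The part of goblet RNA in these ratios was not tested.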
